A study of Mus musculus with 6 samples.

Results

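Integrins are cell-surface receptors built from 1 alpha and 1 beta chain, and they hold leukocytes to vessel walls, to other cells and to the matrix. The beta-2 integrins are found on leukocytes and bind mainly ICAM proteins and complement fragments. Alpha-4 beta-7 binds MAdCAM-1 and brings lymphocytes into gut tissue and its lymph nodes, and alpha-E beta-7 binds E-cadherin on epithelium. The beta-1 chain pairs with many alpha chains, among them alpha-4, which binds VCAM-1 and fibronectin, and alpha-6, a laminin receptor.

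The transcripts of 10 leukocyte integrin subunits, Itga4, Itgae, Itgb7, Itgal, Itgam, Itgax, Itgb2, Itgb1, Itga6 and Itgad, were compared between mesenteric lymph node (mLN) and spleen by RNA-seq. These members were taken by symbol, after the gene identifiers were matched to the GENCODE M21 annotation, and all 10 were found among 55487 gene identifiers. Each of the 10 passed the filter on low counts, as did 14427 genes in all. The study sequenced polyA RNA from CD45+ hematopoietic cells, sorted and used fresh, of wild-type C57BL6/J mice, with 3 libraries from mLN and 3 from spleen. No other genotype, strain or treatment entered, and the labels give no ages. The labels do not say whether the libraries came from separate mice, so each p-value reflects only how far these libraries spread.

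The libraries held 12584244 to 18119551 expected counts in mLN and 16163783 to 17133045 in spleen. The correlation of log2 values across genes was 0.984 to 0.989 between libraries of a tissue, against 0.934 to 0.937 between tissues, so no library stood apart from its own tissue. Ptprc, which encodes the CD45 used for the sort, averaged 2675 ± 35.0 CPM in mLN and 2191 ± 39.0 CPM in spleen (SD, n = 3 each), where CPM is the count scaled to a library total of 1000000. Markers of stromal, endothelial and epithelial cells (4 genes) summed to 6.94 to 7.42 CPM in mLN and 9.03 to 14.8 CPM in spleen. In sorted bulk RNA, fewer cells of a type and less RNA per cell cannot be told apart, which holds for every difference given here.

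The 10 subunits split evenly. Transcripts of the 2 chains of alpha-E beta-7, Itga6, Itgal and Itgb2 were higher in mLN, and those of Itgam, Itgax, Itgad, Itgb1 and Itga4 were lower in mLN than in spleen (edgeR's quasi-likelihood test, Benjamini-Hochberg adjusted p under 0.05). All 10 passed the test, in a comparison that called 45.5% of the genes tested; 21.8% of the tested genes were called higher in mLN and 23.8% lower. The CPM ranges of the tissues did not overlap for any of the 10, as was so for 52.9% of all genes tested. The median log2 fold change (mLN over spleen) was 0.0021 over the members and -0.0018 over all genes tested. The median size of the log2 fold change, without its sign, was 0.85 over the members and 0.24 over all genes tested. Passing the test with at least a 2-fold difference was met by 4 members, Itgae, Itga6, Itgam and Itgad, and by 12.3% of all genes tested. Itgae and Itga6 were higher by that measure, as were 3.67% of genes, and Itgam and Itgad were lower, as were 8.6%. Sizes ranged from a 1.13-fold difference for Itga4 to 3.25-fold for Itgae.

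**Figure D1:**
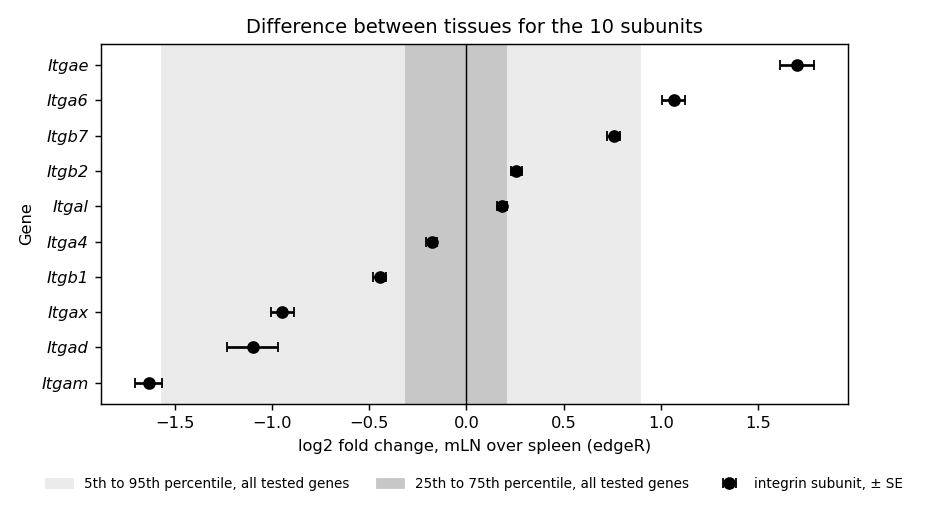
Fitted log2 fold change (mLN over spleen, horizontal axis) of the 10 integrin subunits, 1 per line, with its standard error; the shaded bands hold the middle of all genes tested. Itgae, at 1.70, and Itgam, at -1.64, lie outside the 5th to 95th percentile band, which runs from -1.57 to 0.89; Itga6, at 1.07, also lies above it.

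The beta-7 chain and its alpha-E partner were both higher in mLN, and Itgae had the largest difference of the 10. Itgae encodes the alpha-E chain (CD103) of intraepithelial T cells, some regulatory T cells and a subset of dendritic cells. The gene lies at positions 73090583 to 73147446 of chromosome 11, on the plus strand (mm10). Itgae stood at 47.7, 46.7 and 49.3 CPM in the mLN libraries, against 15.7, 14.7 and 13.8 CPM in the spleen libraries. Every mLN library thus lay above every spleen library. The difference was 3.25-fold (log2 fold change 1.70, SE 0.0869, adjusted p = 2.72e-20). Itgb7, on the minus strand of chromosome 15 at 102215995 to 102231944, encodes the beta chain that alpha-E and alpha-4 share. It was measured at 749, 779 and 700 CPM in mLN, against 455, 429 and 436 CPM in spleen. Again the tissues were apart, with a 1.69-fold difference (log2 fold change 0.76, SE 0.0320, adjusted p = 9.16e-20).

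Itga4, the alpha chain that pairs with either beta-7 or beta-1, did not follow Itgb7. The gene spans 79255426 to 79333123 on chromosome 2, plus strand. It gave 639, 654 and 637 CPM in mLN, against 722, 716 and 746 CPM in spleen. All mLN values lay below all spleen values, but the difference was only 1.13-fold (log2 fold change -0.18, SE 0.0265, adjusted p = 2.67e-07), and 40.4% of tested genes had a smaller one. Of Itga4's annotated 75-base stretches, 6.94% are also found in Cerkl, an overlapping gene on the opposite strand with 2.61 CPM in mLN and 3.10 CPM in spleen.

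The balance between these 3 chains was set out as ratios of TPM, a relative unit that divides by transcript length and so allows levels of different genes to be compared. Within each library, Itgb7 stood at 5.21, 5.13 and 5.23 times Itga4 in mLN, against 2.66, 2.40 and 2.57 times in spleen. Itgae was 0.183, 0.176 and 0.191 of Itga4 in mLN, against 0.0533, 0.0510 and 0.0455 in spleen. Thus the beta-7 chain and the alpha-E chain were both more abundant relative to alpha-4 in mLN, by 2.04-fold and 3.67-fold. Itgae also rose relative to its own partner, at 0.0351, 0.0343 and 0.0364 of Itgb7 in mLN, against 0.02003, 0.0213 and 0.0177 in spleen. In total 12 ratios between members were compared, and in 12 of 12 the tissues did not overlap. Each gave p = 0.1 by an exact two-sided permutation test and 0.1 after adjustment over the 12. That is the smallest p that 3 libraries against 3 allow. The 12 are not separate results, since they draw on the same 10 members, whose own TPM ranges did not overlap. Of them, 4 are shares of the same summed alpha chains. How often ratios of other genes keep the tissues apart was not computed, while CPM of single genes did for 52.9% of those tested.

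**Figure D2:**
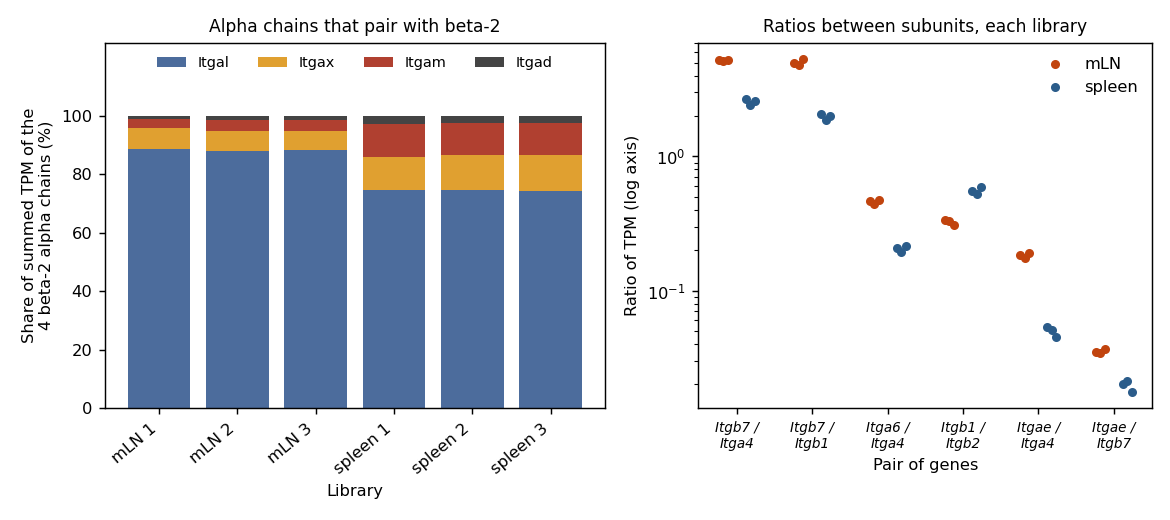
Left, the share of each beta-2 alpha chain in their summed TPM (%), as 1 stacked bar per library; right, 6 ratios of TPM between subunits on a log axis, 1 point per library, with mLN left of spleen. Itgb7 over Itga4 lies at 5.13 to 5.23 in mLN and at 2.40 to 2.66 in spleen, and none of the ratios or shares drawn overlaps between the tissues.

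The mLN libraries also held more T cell transcripts, and these values stand beside the changes of Itgae and Itgb7. All 14 genes of a pan-T list rose, with log2 fold changes of 0.89 or more and a median of 1.15, and their sum was 4426 to 4455 CPM in mLN and 1850 to 1855 CPM in spleen. The CD4 and CD8 genes rose in 4 of 4 cases, led by Cd40lg (log2 fold change 1.72) and Cd4 (1.39). In the regulatory T cell list, Foxp3 (1.00) and Il2ra (1.61) were among the 3 of 4 that rose, while Ikzf2 fell by 0.38. Of 6 genes linked with tissue-resident and intraepithelial T cells, Cd69 (1.07), Xcl1 (0.63) and 1 other rose and Ahr fell by 0.41. The remaining 2 were not called, and the median of this list was only 0.16. Migratory dendritic cell genes, among which are Fscn1 (3.28) and Aldh1a2 (4.09), rose in 5 of the 5 tested, and the 6 listed summed to 107 to 120.5 CPM in mLN and 14.2 to 17.1 CPM in spleen. Of the calls named here, that of Ahr was lost with effective length in the fit, on the TPM scale, without mLN replicate 2 and without spleen replicate 1, and that of Xcl1 without spleen replicate 3. What part these cell types have in the integrin differences was not tested.

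Set against the mean of the pan-T list within each library, Itgae was still higher in mLN and Itgb7 was not. Log2 CPM of Itgae minus the pan-T mean was -2.51 in mLN and -2.99 in spleen, a difference of 0.48. For Itgb7 it was 1.44 in mLN and 1.90 in spleen, a difference of -0.46. Minus the mean of a pan-B list, the difference for Itgb7 was 1.57. For Itga4 the difference was -1.40 against the pan-T mean and 0.63 against the pan-B mean. For Itgb1 these were -1.66 and 0.36. Of 18 such differences between a member and a marker list, 15 did not overlap between tissues. Each of the 15 had p = 0.1 by the exact permutation test and 0.12 after adjustment over the 18. These differences reuse the same members and lists, and the share for other genes was not computed.

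Itga6, the laminin-binding alpha chain found on T cell subsets, platelets and epithelium, was the other member with more than a 2-fold rise. It lies on the plus strand of chromosome 2, at 71745616 to 71858416. Its levels were 109, 102 and 111 CPM in mLN, against 52.6, 45.9 and 54.6 CPM in spleen. The mLN libraries were about level with each other and all above spleen, with a 2.10-fold difference (log2 fold change 1.07, SE 0.0590, adjusted p = 3.67e-19). Relative to the pan-T mean, log2 CPM of Itga6 was -1.35 ± 0.0528 in mLN and -1.20 ± 0.127 in spleen (SD, n = 3 each). Those values overlapped between the tissues, with a difference of -0.14 (p = 0.3 by the exact permutation test, 0.318 adjusted over the 18).

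Itgb1, the common beta chain of the very late activation integrins, moved the other way from Itga6. The gene is at 128685654 to 128733200 on the plus strand of chromosome 8. It stood at 266, 258 and 245 CPM in mLN, against 351, 339 and 358 CPM in spleen. No mLN library reached the lowest spleen library, and the difference was 1.36-fold (log2 fold change -0.45, SE 0.0331, adjusted p = 4.49e-15). The ratio of Itgb7 to Itgb1, in TPM, was 4.96, 4.84 and 5.30 in mLN, against 2.05, 1.88 and 2.0001 in spleen. Itgb1 was 0.337, 0.331 and 0.311 of Itgb2 in mLN, against 0.556, 0.526 and 0.592 in spleen, so it was also less abundant relative to the beta-2 chain in mLN. Itga6 was 0.465, 0.445 and 0.472 of Itga4 in mLN, against 0.206, 0.194 and 0.217 in spleen.

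Among the beta-2 integrins, the lymphocyte chain and the myeloid chains parted. Itgal, on chromosome 7 at 127296260 to 127335138 (plus strand), encodes the alpha chain of LFA-1, which all lymphocytes use to bind ICAM-1. It was at 859, 857 and 862 CPM in mLN, against 784, 749 and 737 CPM in spleen. Itgb2, its beta chain, lies on chromosome 10 at 77530252 to 77565708 (plus strand) and stood at 584, 595 and 588 CPM in mLN, against 501, 507 and 473 CPM in spleen. Both were slightly higher in every mLN library than in any spleen library. The difference was 1.14-fold for Itgal (log2 fold change 0.18, SE 0.0262, adjusted p = 1.32e-07) and 1.19-fold for Itgb2 (log2 fold change 0.26, SE 0.0287, adjusted p = 5.59e-10). Both differences lay below the rise of the pan-T genes. Log2 CPM minus the pan-T mean was lower in mLN by 1.03 for Itgal and by 0.96 for Itgb2, while the same minus the pan-B mean was higher in mLN by 0.996 and by 1.07. The pan-B genes fell in 13 of 13 cases, with a median log2 fold change of -0.79, and summed to 4274 to 4353 CPM in mLN and 7347 to 7464 CPM in spleen.

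**Figure D3:**
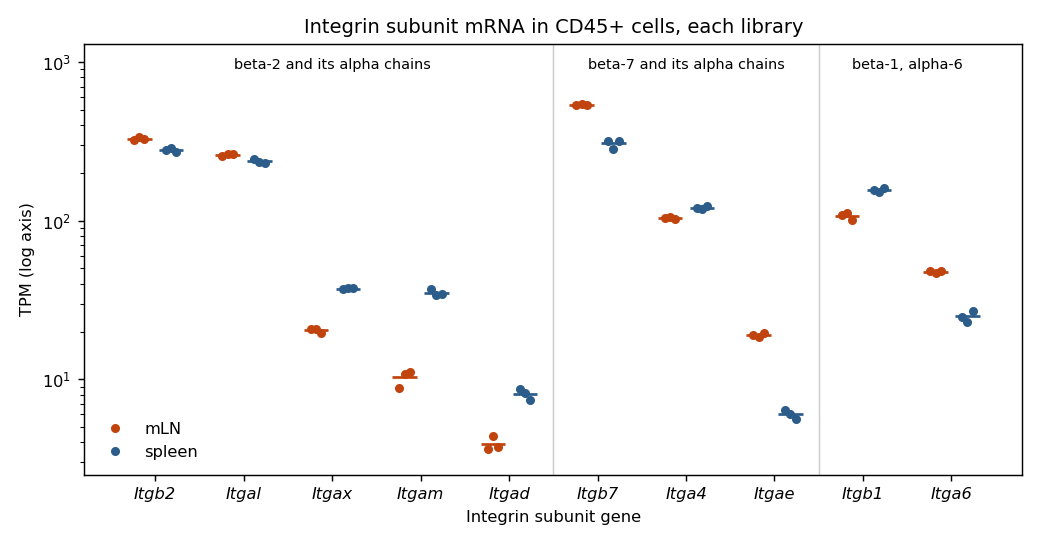
TPM of the 10 subunits in each library, on a log axis, with mLN left of spleen; points are libraries and horizontal bars are tissue means. Itgb7, Itgb2 and Itgal are the 3 most abundant transcripts in both tissues, at 539, 329 and 260.4 TPM in mLN and 308, 279 and 236 TPM in spleen, and Itgam, Itgax and Itgad sit lower in mLN.

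Itgam, Itgax and Itgad encode the alpha chains CD11b, CD11c and CD11d, which mark monocytes, macrophages, neutrophils, dendritic cells and, for CD11d, macrophages of the splenic red pulp. All 3 were lower in mLN. Their genes follow one another on the plus strand of chromosome 7, at 128062640 to 128118491 for Itgam, 128129547 to 128150657 for Itgax and 128154376 to 128223816 for Itgad, with no protein-coding gene between them. The gaps are 11055 and 3718 bases. Itgal, on the same chromosome, is 727501 bases from Itgam with 38 protein-coding genes between.

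Itgam, the alpha chain of the complement receptor Mac-1, showed the larger fall. It gave 27.4, 33.2 and 34.6 CPM in mLN, against 95.8, 99.8 and 99.9 CPM in spleen. The spleen libraries were close together and the first mLN library was the lowest. The difference was 3.11-fold (log2 fold change -1.64, SE 0.0680, adjusted p = 2.51e-23). Itgax was at 45.8, 45.9 and 42.6 CPM in mLN, against 84.9, 89.7 and 85.1 CPM in spleen. Here mLN had 1.93-fold less (log2 fold change -0.95, SE 0.0604, adjusted p = 3.86e-17). Itgad was the scarcest subunit in mLN, with 7.74, 10.4 and 9.56 CPM, against 21.3, 19.98 and 18.2 CPM in spleen. Its tissues did not overlap either, and the difference was 2.14-fold (log2 fold change -1.10, SE 0.130, adjusted p = 1.89e-09), with the widest standard error of the 10.

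The makeup of the beta-2 alpha chains differed as well. Itgal was 88.5%, 87.96% and 88.3% of the summed TPM of the 4 alpha chains in mLN, against 74.7%, 74.7% and 74.3% in spleen. Itgam was 3.48 ± 0.375% of that sum in mLN and 11.1 ± 0.277% in spleen (SD, n = 3 each). Itgax was 6.91 ± 0.261% in mLN and 11.8 ± 0.441% in spleen, and Itgad was 1.33 ± 0.117% in mLN and 2.55 ± 0.129% in spleen (SD, n = 3 each). The sum of the 4 alpha chains was 0.898 ± 0.0114 of Itgb2 in mLN and 1.14 ± 0.0376 of Itgb2 in spleen (SD, n = 3 each). Of the myeloid chains, Itgam was 0.427, 0.525 and 0.566 of Itgax in mLN, against 1.00, 0.909 and 0.916 in spleen, so CD11b transcripts fell further than those of CD11c.

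Myeloid marker lists differed between the tissues as well, but not all of them fell as these chains did. The migratory dendritic cell genes given above rose in 5 of the 5 tested. The 11 neutrophil genes all fell, to a sum of 16.6 to 17.4 CPM in mLN, against 1516 to 1548 CPM in spleen, with Elane and Ly6g at 0 in all mLN libraries. Of 12 monocyte and macrophage genes, 6 fell, led by Adgre1 (log2 fold change -1.37) and Cx3cr1 (-0.92), and 5 rose, led by Marco (5.81) and Siglec1 (3.40), both known from lymph node and marginal zone macrophages. That list summed to 1024 to 1040 CPM in mLN and 1156 to 1166 CPM in spleen. Conventional dendritic cell genes fell in 6 of 9 cases, led by Xcr1 (-2.33) and Clec9a (-2.29), and summed to 90.3 to 107 CPM in mLN and 157 to 169 CPM in spleen. NK genes fell in 7 of 9 cases, with S1pr5 at -3.44 and Gzma at -1.61, and rose for Eomes (0.67) and Nkg7 (0.28). The part of these cells in the integrin differences was not tested.

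The 3 chains were also set against some of those lists within each library, but not against the migratory dendritic cell genes. Log2 CPM of Itgam minus the neutrophil mean was 6.32 in mLN and 0.44 in spleen, so Itgam fell by far less than the neutrophil genes. The size of the mLN value depends on the prior count of 2, since Elane and Ly6g had 0 counts there. Minus the monocyte and macrophage mean, Itgam was 0.12 in mLN and 2.23 in spleen, a difference of -2.11, and the differences for Itgax and Itgad were -1.42 and -1.57. That mean takes in the rises of Marco and Siglec1, while the list's median log2 fold change was -0.15, and all 3 differences are larger than the chains' own falls. Minus the conventional dendritic cell mean, Itgax was 3.62 in mLN and 3.51 in spleen, and those values overlapped (difference 0.11, p = 0.3 by the exact permutation test). Itgad minus that mean was 1.34 in mLN and 1.39 in spleen and overlapped too (difference -0.04, p = 0.8 by the exact permutation test); its sign turned in 3 alternatives.

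**Figure D4:**
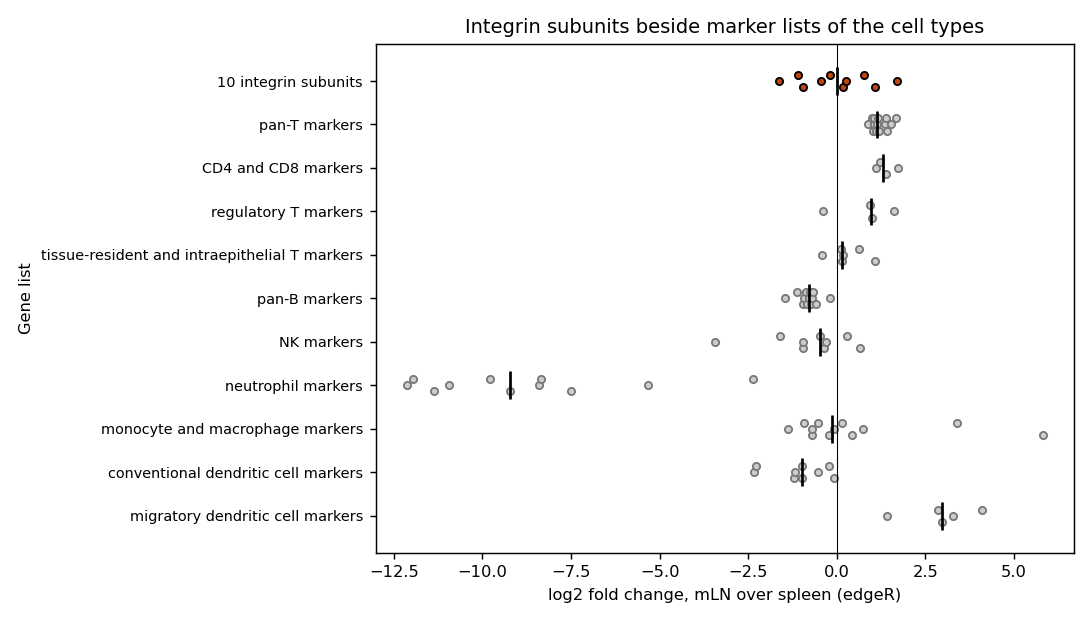
Log2 fold change (mLN over spleen, horizontal axis) of the tested genes of each list, 1 point per gene, with a bar at the list's median; the 10 integrin subunits are on the top line. The pan-T genes lie at 0.89 or above, all neutrophil and pan-B genes lie below 0, and the integrin subunits spread from -1.64 to 1.70; values of genes at 0 in mLN depend on the prior count of the fit.

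Parts of these genes are shared with their neighbours in the annotation, which bears on how reads were assigned. Of the 75-base stretches in Itgam's transcripts, 65.2% are also found in Gm49368, an overlapping gene on the same strand with 1.29 CPM in mLN and 3.09 CPM in spleen. Adding the counts of both gave a log2 fold change of -1.62 (adjusted p = 1.90e-24), an alternative chosen after the data were seen. Itgad shared 12.2% of its stretches with other genes, Itgax among them, and Itgax 5.01%. Itgae, Itgb7, Itgal and Itgb1 shared none. The effective length that the authors' program assigned to a gene depends on the isoforms it counted, but not on these alone. Over 2547 genes with 1 annotated transcript, its median was 1595 to 1599 bases in mLN libraries and 1575 to 1593 bases in spleen libraries. For Itgax the effective length was 3178, 3181 and 3113 bases in mLN, against 3390, 3560 and 3361 bases in spleen, a mean difference of -8.13%. It was 6.60% longer in mLN for Itgam, with 4448, 4392 and 4459 bases in mLN and 3810, 4357 and 4308 bases in spleen, where the first spleen library stood apart. It differed by -7.08% for Itgad, by -6.49% for Itgb7, by 6.17% for Itga6, by 3.36% for Itgb1 and by -1.55% for Itgb2. For Itga4, Itgae and Itgal the difference was at most 0.251%. All 12 ratios between members kept their direction, with no overlap between tissues, when CPM without length was used in place of TPM.

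The starts of Itgam and Itgax are shown because these neighbouring myeloid chains both fell and both have a RefSeq promoter entry. Of the 10 members, 5 have one (Itga4, Itgb7, Itgam, Itgax and Itgb1, build GRCm38.p6). Each line gives the last 150 bases before the transcript start on the plus strand, at chr7:128062490-128062639 for Itgam and chr7:128129400-128129549 for Itgax. Capitals mark GAGGAA, a core of sites bound by the myeloid factor PU.1, or TTCCTC, its reverse complement.
Itgam: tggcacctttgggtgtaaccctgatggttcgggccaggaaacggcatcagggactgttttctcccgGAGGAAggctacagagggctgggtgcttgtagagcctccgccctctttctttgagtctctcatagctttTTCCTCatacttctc
Itgax: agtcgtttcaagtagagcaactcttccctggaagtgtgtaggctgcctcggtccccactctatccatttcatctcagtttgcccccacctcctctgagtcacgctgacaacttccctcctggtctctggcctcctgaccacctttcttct
The letters occur at 2 places before Itgam, the first with its first base 84 bases before the start on the plus strand and the other 15 bases before it on the minus strand. They do not occur before Itgax in this window. Of the other 3 members with an entry, Itgb1 holds 1 match, with its first base 9 bases before the start on the plus strand, and Itga4 and Itgb7 hold 0. Of 32851 RefSeq promoters, 14.5% hold a match on either strand in the same 150 bases. A match is a description of letters only, and binding was not measured.

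The order of abundance was taken from TPM. In mLN it ran Itgb7, Itgb2, Itgal, Itgb1, Itga4, Itga6, Itgax, Itgae, Itgam and Itgad, with means of 539, 329, 260.4, 107, 104, 47.8, 20.4, 19.0, 10.3 and 3.93 TPM. In spleen the first 5 were the same, and then came Itgax, Itgam, Itga6, Itgad and Itgae, at 37.3, 35.2, 24.9, 8.10 and 6.04 TPM. Itgae thus stood eighth in mLN and last in spleen, where Itgad was above it. Neighbours in this order that overlapped between libraries were Itgb1 and Itga4 in mLN, and Itgb7 with Itgb2 and Itgax with Itgam in spleen. Against all tested genes, Itgb7 lay at percentile 98.5 in mLN and 97.4 in spleen, and Itgae at 53.0 in mLN and 30.2 in spleen.

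The genes most like each member across the 6 libraries were found by the root mean square difference of centred log2 CPM, among 8880 genes with a mean of at least 10 CPM. With only 2 tissues such a profile mainly reflects the size of the tissue difference. Among the genes nearest to Itgae were Dzip1 (0.0781) and Cd96 (0.0890), a receptor of T and NK cells. Nearest to Itgb7 was Rasal3 (0.0259), and nearest to Itga6 was Ntrk3 (0.0292). Itgam lay nearest to Cdc6 (0.0305), Itgax to Prdx2 (0.0310) and Wdfy4 (0.0333), and Itgad to Asb2 (0.0463). For the members with small differences the nearest genes were Cdan1 for Itga4 (0.00759), Myo9b for Itgal (0.0124), Ubr4 for Itgb2 (0.00982) and Ppp3ca for Itgb1 (0.0241).

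The integrin subunits outside these 10 were mostly scarce, and more of them were lower than higher in mLN. Of 16 listed, 13 were tested, 1 rose and 8 fell, with a median log2 fold change of -0.64. Among all tested genes, 21.8% were called higher in mLN and 23.8% lower. Itgb3, the beta chain of the vitronectin receptor and of the platelet fibrinogen receptor, was the one that rose, at 107 ± 4.90 CPM in mLN and 58.1 ± 1.60 CPM in spleen (SD, n = 3 each; log2 fold change 0.88, adjusted p = 9.93e-18). Its platelet partner Itga2b fell, to 1.83 CPM in mLN against 9.34 CPM in spleen (log2 fold change -2.37, adjusted p = 3.33e-11). The 6 listed platelet genes, of which 2 were tested, summed to 0 to 0.467 CPM in mLN and 3.29 to 4.54 CPM in spleen. In each tissue that sum was below Itga2b alone, and the part of platelets in its fall was not tested. The collagen receptor chain Itga1 fell to 2.83 CPM in mLN, against 9.44 CPM in spleen (log2 fold change -1.72). The remaining falls were Itga8 (-2.17), Itgb8 (-0.99), Itga2 (-0.68), Itgb5 (-0.64), Itga5 (-0.48) and Itgav (-0.28), the other partner of Itgb3. These were less firm, since 4 of them (Itga2, Itga5, Itgav and Itgb8) lost the call with effective length in the fit and also on the TPM scale. That of Itga8 was lost on the TPM scale and in each of 4 fits, without mLN replicate 1 or 2 and without spleen replicate 1 or 3, and that of Itgb5 without mLN or spleen replicate 2. The count of 8 became 4 with effective length and 3 on the TPM scale, and the single rise became 2 with effective length or without mLN replicate 3.

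Ligands of these receptors are made largely by stroma and endothelium, which the CD45 sort left out, yet several were measured. Of 13 listed, 10 were tested, 2 rose and 5 fell, with a median log2 fold change of -0.40. The shares over all tested genes were 21.8% higher and 23.8% lower. Cdh1, the E-cadherin bound by alpha-E beta-7, was at 8.21, 7.93 and 8.99 CPM in mLN, against 3.16, 4.995 and 3.47 CPM in spleen. It was higher in every mLN library (log2 fold change 1.11, adjusted p = 1.47e-05), as Itgae was. Icam2, a ligand of LFA-1, averaged 55.6 CPM in mLN and 45.5 CPM in spleen (log2 fold change 0.29, adjusted p = 0.000382), a call lost on the TPM scale. The ligands that fell most were Spp1, at 0.309 CPM in mLN and 3.13 CPM in spleen, and Icam4, at 0.403 CPM in mLN and 3.89 CPM in spleen. Icam4 is known from red cells, and 5 erythroid genes summed to 6.27 to 9.56 CPM in mLN and 1026 to 1058 CPM in spleen. Fn1 (fibronectin) and Vcam1, the ligands of alpha-4 beta-1, fell too and are named after their values were seen. Fn1 averaged 61.0 CPM in mLN and 164 CPM in spleen (log2 fold change -1.43), and Vcam1 averaged 8.49 CPM in mLN and 19.7 CPM in spleen (-1.22). Madcam1, the ligand of alpha-4 beta-7, was too scarce to be tested, at 0.0375 CPM in mLN and 0.1004 CPM in spleen.

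Of 24 genes that switch integrins on or tie them to actin, 22 were tested, 8 rose and 5 fell, with a median log2 fold change of 0.03. Over all tested genes, 21.8% were called higher and 23.8% lower. Skap1, an adaptor of the T cell receptor pathway to LFA-1, was at 161 ± 3.97 CPM in mLN and 61.3 ± 3.51 CPM in spleen (SD, n = 3 each; log2 fold change 1.39, adjusted p = 1.86e-26). Its binding partner Fyb (ADAP) was at 311 ± 11.6 CPM in mLN and 168 ± 0.958 CPM in spleen (SD, n = 3 each; log2 fold change 0.89, adjusted p = 1.41e-24). The myeloid counterpart Skap2 fell (log2 fold change -0.66, adjusted p = 1.27e-07), and so did Vcl, the actin linker vinculin (-1.77, adjusted p = 1.61e-19). As given above, the pan-T genes rose, the neutrophil and pan-B genes fell, and the monocyte and macrophage genes went both ways. What part any cell type has in these 4 differences was not tested. Tln1 (talin) and Fermt3 (the leukocyte kindlin), which bind beta chain tails and are likewise named after their values were seen, did not pass the test. Tln1 averaged 1271 CPM in mLN and 1242 CPM in spleen, and Fermt3 averaged 374 CPM in mLN and 370 CPM in spleen. The count of 5 became 3 with effective length in the fit.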

How the data were processed

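PolyA RNA of sorted CD45+ cells from 3 mLN and 3 spleen samples was sequenced with a directional kit, per the labels' protocols. STAR, RSEM and mm10 are named in the submitters' processing notes without versions, and no source used here states which strand was counted. The deposited values, per the file headers, are the authors' expected counts per gene, which need not be whole, with TPM, FPKM and effective length in bases. FPKM was not used here.

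The expected counts were rounded to whole numbers. Of 55487 gene identifiers, 55141 matched a symbol in GENCODE M21; the other 346 held 0.0356% to 0.0446% of counts. edgeR 4.0.16 in R 4.3.3 was run with its expression filter by tissue, TMM scaling and the quasi-likelihood test, with tissue as the only term, with Benjamini-Hochberg adjustment across the 14427 genes that passed the filter. Genes with an adjusted p under 0.05 were called. Log2 fold changes are mLN over spleen. CPM uses TMM-scaled library sizes. Ratios between genes used TPM, and differences from marker lists used log2 CPM with a prior count of 2, each with an exact two-sided permutation test over the 20 assignments of 6 libraries. The steps were tested on simulated data.

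The members, the gene lists and the tests were chosen with earlier results of these data known. Named genes were all 10 members, every called gene among the other integrin subunits, up to 2 rises and 2 falls of largest size in each other list, and the 3 genes nearest each member in profile, not all of which are printed. The 16 alternative settings changed the scaling (RLE, upper quartile, none), the filter, the use of effective length, the abundant gene families, the replicate block and the tool (DESeq2 1.42.0, and limma 3.58.1 on log2 of TPM plus 1), and left out each library in turn. Over all genes, the squared difference between 2 libraries of a tissue was, at the median, 2.48 to 2.96 times that of counting error alone; single members could lie at or below counting error.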

Additional observations from a re-analysis of the deposited data

How the results depend on the processing

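All 10 integrin subunits kept their direction and passed the test under each of the 16 alternative settings. The log2 fold change of Itgae ranged from 1.51 to 1.75, that of Itgam from -1.72 to -1.54 and that of Itgal from 0.13 to 0.21, where limma on the TPM scale gave the highest adjusted p of any member (0.0238). Over all genes, limma on log2 of TPM plus 1 called 4378 genes against 6569, and 1657 as higher in mLN against 3139. Leaving out 1 library at a time left 5854 to 6322 calls. Whether mLN and spleen samples of the same replicate number share a mouse is not stated in the labels. The correlations of deviations from the tissue means were 0.027, 0.028 and -0.0081 at the same number. Between unlike numbers they ran from -0.039 to 0.012, and not every sample correlated best with its own number. With 3 libraries a tissue, correlations this small cannot settle whether the samples are paired. With the replicate number as a block, 6455 genes were called, and no member's call changed. The difference of Itgad from the conventional dendritic cell mean, -0.04, was not steady in sign. It became 0.10 with log2(TPM + 0.1), 0.073 without mLN replicate 1 and 0.028 without spleen replicate 1. Over the fits that left out 1 library it ranged from -0.16 to 0.073. The permutation test cannot give a p under 0.1, so these settings could not bring it past 0.05, and the cause was not tested. Of 813 values of named genes outside the members, 786 kept direction and call, 27 lost the call and 0 turned. The limits are 3 libraries a tissue, bulk RNA of mixed cells, a smallest permutation p of 0.1, and the reads that Itgam shares with Gm49368.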

Other observations

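Itgb2l encodes a beta-2-like integrin chain known from mouse neutrophils, on the minus strand of chromosome 16 at 96422288 to 96443619. It was in no list and was chosen after its values were seen. It had 0 counts in all 3 mLN libraries, against 229, 197 and 178 counts in the spleen libraries, or 11.9 ± 1.26 CPM in spleen (SD, n = 3). With a floor of 3 counts over the mLN libraries, 0.0665 CPM, it was at least 179-fold lower in mLN. Itgb2 itself was slightly higher in mLN, at 589 ± 5.85 CPM in mLN and 494 ± 18.4 CPM in spleen (SD, n = 3 each). The 11 neutrophil markers were also lower in mLN, and their part in the Itgb2l difference was not tested.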
